A study of Mus musculus with 8 samples.

Results

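The clustered protocadherins are cell-adhesion proteins of neurons, encoded by 3 neighbouring gene clusters named alpha, beta and gamma. They were measured by RNA sequencing in the hippocampus of mice exposed to bisphenol A (BPA, a building block of plastics with weak oestrogen-like activity) through their mothers' diet. The deposited table of 24527 gene symbols holds 58 clustered protocadherin symbols. The 55 of them with 80 or more reads summed over the 8 libraries are described here, as 11 alpha, 22 beta and 22 gamma genes, and all 55 also passed the filter on low counts applied before the tests. The least covered gene inside the threshold was Pcdhb1 with 81 reads, followed by Pcdha8 with 179 and Pcdha1 with 457. The 3 genes outside it, Pcdha4, Pcdha6 and Pcdha7, were listed at 0 in all 8 libraries.

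The BPA group held 4 libraries from male wild-type C57BL/6J offspring aged 20 weeks, whose mothers ate a low-phytoestrogen feed with 50 mg of BPA per kg while pregnant and nursing. The control group held 4 libraries from males of the same strain, genotype and age whose mothers ate that feed with 0 mg of BPA. All offspring ate the control feed from weaning on postnatal day 21, so the comparison is of adult tissue long after exposure ended. The labels call the 4 samples of a group independent biological replicates and do not give litters, so p-values reflect only how far these samples scatter, and litters may be shared.

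Each alpha and gamma gene joins its own large first exon, which encodes the extracellular part and the membrane span, to a few constant exons shared by its whole cluster, whereas each beta gene is a single exon. A neuron uses a small, largely random set of the alternate promoters, chosen with the help of the DNA-binding factor CTCF, the cohesin ring and DNA methylation, while the C-type genes at the ends of the alpha and gamma clusters are used more broadly. The proteins bind their own kind on facing membranes, and in mice this identity code lets the branches of one neuron recognise and avoid each other. Clustered protocadherins are also known for roles in axon tiling, dendrite arborisation and the survival of interneurons.

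In the RefSeq annotation of GRCm38 the alpha cluster spans positions 36930285 to 37188897 of chromosome 18, the beta cluster 37264998 to 37521419, and the gamma cluster 37661775 to 37841873. Library totals were 43572542, 54013884, 43119986 and 44002785 counted reads in the BPA libraries (replicates 1 to 4), against 40793192, 36280700, 31118450 and 27135071 in the control libraries. Every BPA library was thus deeper than every control library, and depth and exposure cannot be told apart by design. The 55 genes took 0.0710 to 0.0740% of the reads in BPA libraries and 0.0677 to 0.0739% in control libraries. Genes that mark hippocampal fields and glutamatergic neurons were all expressed, among them Prox1 (123 CPM in BPA and 108 CPM in control libraries), Wfs1 (97.3 and 106 CPM) and Slc17a7 (546 and 553 CPM). CPM values here are edgeR's library-scaled read counts with TMM normalisation.

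No clustered protocadherin gene passed the test of a difference between BPA and control hippocampus. Of the 55 genes, 0 passed an adjusted p of 0.05 in edgeR's quasi-likelihood test with Benjamini-Hochberg adjustment, where 0% of the 15434 tested genes passed. Their adjusted p-values lay between 0.955 and 0.999. At an unadjusted p under 0.05 the count was also 0 of 55, against 4.52% of all tested genes. DESeq2, which called 7 genes in the whole table, and limma-voom, which called 0, each put 0 of the 55 under an unadjusted 0.05. Of all genes that each tested, DESeq2 put 3.02% and limma-voom 4.56% under it. An unadjusted p under 0.10 was reached by 5 of the 55 (Pcdhb1, Pcdha1, Pcdhb14, Pcdhga7 and Pcdhac1), a share close to the 10.0% of all tested genes. The log2 fold change of BPA over control was above 0 in 32 genes and below 0 in 23, where 50.0% of all tested genes lay above 0. Its median over the 55 was 0.010, against 4.9e-05 over all tested genes.

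The intervals come from the fit of group alone, which leaves depth out and takes the samples as independent. Under those conditions they show how small a difference these libraries leave room for. For 52 of the 55 genes the 95% interval of the fold change excluded changes of 1.5-fold or more either way, as it did for 85.4% of all tested genes. The 3 exceptions were the shallow genes Pcdhb1, Pcdha8 and Pcdha1. Inside 1.25-fold lay the intervals of 35 genes, against 68.0% of all tested genes, made up of 4 alpha, 15 beta and 16 gamma genes. The alpha genes had a median of 1024 reads over the 8 libraries, the beta genes 2370 and the gamma genes 4222. Leaving out 1 library at a time put 0 to 5 of the 55 genes under an unadjusted 0.05 and none past the adjusted threshold. There were 5 without control replicate 3 (Pcdhga10, Pcdhgb5, Pcdhga2, Pcdhb14 and Pcdhgc5), 3 without control replicate 4 (Pcdhgb1, Pcdhb1 and Pcdhb19), and 1, Pcdhb1, without BPA replicate 3 or without control replicate 1. The share of all tested genes under that threshold moved too, to 7.52% without control replicate 3, where the 5 make up 9.09% of the 55, and to 4.18% without control replicate 4, where the 3 make up 5.45%. Dropping BPA replicate 3 gave 6.65% of all tested genes, and dropping control replicate 1 gave 3.84%, where the single gene makes up 1.82% of the 55.

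**Figure D1:**
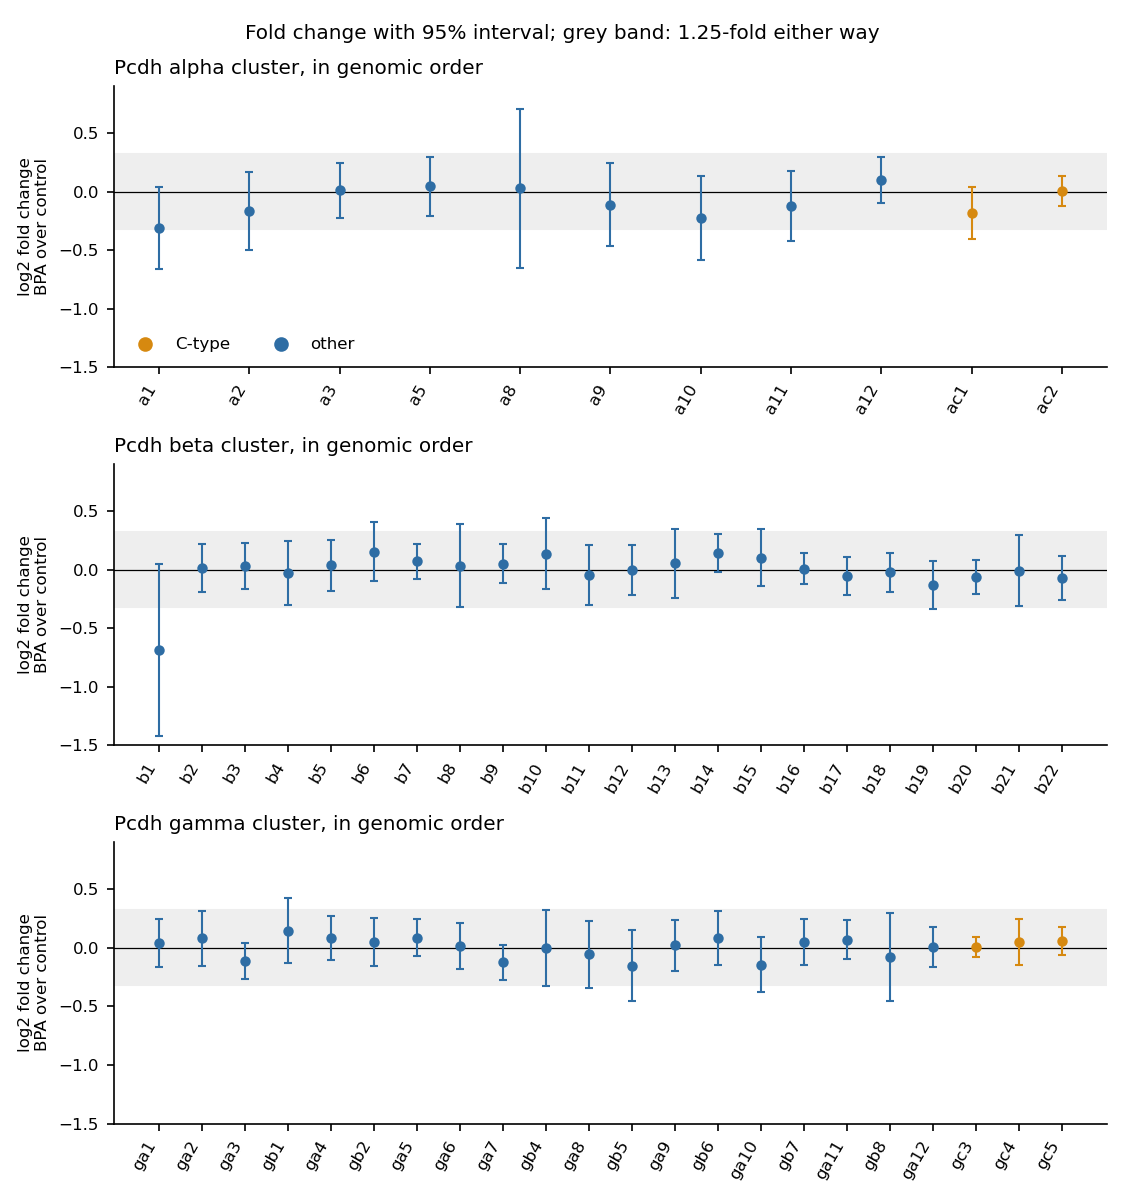
Log2 fold change of BPA over control for each of the 55 genes (point) with its 95% interval (bar) on the vertical axis, in genomic order within the alpha, beta and gamma clusters, with the prefix Pcdh left off the names. The grey band marks 1.25-fold in either direction. The interval of every gene crosses 0, and the widest ones belong to Pcdhb1 and Pcdha8, which have 81 and 179 reads.

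The C-type genes carried much of the counted signal of the alpha and gamma clusters, and the group means of 4 of the 5 lay within a few percent of each other. Pcdhac2, which in mice is needed for the even spread of serotonin axons, had 35.4, 37.1, 35.3 and 33.6 CPM in BPA libraries, against 35.1, 32.7, 34.0 and 39.1 CPM in control libraries. Both the highest and the lowest value were in control libraries, and the control range enclosed the BPA range. Its log2 fold change was 0.0073 ± 0.059 (SE), with a 95% interval from -0.12 to 0.14.

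Pcdhac1, the other alpha C-type gene, was the 1 member of the 55 whose groups did not overlap. It had 3.00, 2.99, 2.97 and 3.16 CPM in BPA libraries, against 3.53, 3.17, 3.36 and 3.73 CPM in control libraries. BPA replicate 4, the highest of its group, lay just under control replicate 2, the lowest control. The log2 fold change was -0.19 ± 0.10 (SE), with an edgeR adjusted p of 0.955, so the difference did not pass the test. Such a separation was seen in 2.79% of all tested genes, and in the lower direction in 1.43%, so 1 of 55 is near the background. The estimate ran from -0.22 without control replicate 2 to -0.15 without control replicate 4. It was -0.12 with library depth as a covariate and -0.22 without control replicate 2 and BPA replicate 3 together.

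Pcdhgc5, whose protein interacts with GABA-A receptor subunits, had 121, 121, 121 and 115 CPM in BPA libraries, against 109, 112, 128 and 111 CPM in control libraries. Of the control libraries, 3 lay below all BPA libraries and replicate 3 lay above them all. Pcdhgc5 had a log2 fold change of 0.055 ± 0.054 (SE), with an interval from -0.06 to 0.17. The estimate came to 0.11 without control replicate 3 and to 0.031 without control replicate 1.

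Pcdhgc3, which binds Axin1 and restrains Wnt signalling, had 68.0, 64.98, 63.7 and 64.2 CPM in BPA libraries, against 64.6, 65.9, 64.5 and 64.6 CPM in control libraries. The groups overlapped throughout, and at 0.0073 ± 0.040 (SE) its log2 fold change was the most tightly bounded of the C-type genes. Pcdhgc4, the gamma gene needed for the survival of cortical interneurons, had 7.45, 6.96, 8.60 and 7.31 CPM in BPA libraries, against 7.81, 7.57, 6.55 and 7.28 CPM in control libraries. The highest value was a BPA and the lowest a control library, and the log2 fold change was 0.050 ± 0.089 (SE).

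The remaining 9 alpha genes are alternate genes, each picked by only some neurons. Their log2 fold changes were above 0 in 4 and below 0 in 5, and the median over the 11 alpha genes was -0.11. That median rested on single libraries, at -0.026 without control replicate 3, -0.029 without BPA replicate 2 and -0.035 without control replicate 1. It was -0.056 without BPA replicate 4 and -0.068 without BPA replicate 3, between -0.13 and -0.091 without any one of the other libraries, and -0.042 with depth as a covariate.

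Pcdha1, the first gene of the cluster, had 1.32, 1.46, 1.41 and 0.968 CPM in BPA libraries, against 1.68, 1.65, 1.42 and 1.64 CPM in control libraries. BPA replicate 2 lay above control replicate 3, so the groups overlapped. With an edgeR adjusted p of 0.955, the log2 fold change of Pcdha1 was -0.31 ± 0.16 (SE), and it was -0.20 without BPA replicate 4, which held 42 reads of the gene. Pcdha10 had 3.04, 2.99, 3.00 and 1.96 CPM in BPA libraries, against 2.92, 3.17, 2.78 and 4.04 CPM in control libraries. BPA replicate 4 was far below the other BPA libraries and control replicate 4 far above the other control libraries. The log2 fold change of -0.22 ± 0.16 (SE) came to -0.093 when BPA replicate 4 was left out and to -0.11 when control replicate 4 was.

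Pcdha12 and Pcdha9, the most expressed alternate alpha genes per kb, had groups that overlapped as well. Pcdha12 had 8.94, 7.41, 6.89 and 7.24 CPM in BPA libraries, against 7.19, 7.11, 7.49 and 6.67 CPM in control libraries, with a log2 fold change of 0.10 ± 0.092 (SE) that came to 0.012 without BPA replicate 1. Pcdha9 had 5.81, 4.69, 5.12 and 7.05 CPM in BPA libraries, against 7.02, 4.45, 5.68 and 7.39 CPM in control libraries. Both groups of Pcdha9 thus spread widely, and its log2 fold change was -0.11 ± 0.16 (SE). It was -0.24 without control replicate 2, -0.018 without control replicate 4 and 0.097 with depth as a covariate. Pcdha8, the alpha gene with the fewest reads, had 0.917, 0.485, 0.484 and 0.369 CPM in BPA libraries, against 0.544, 0.560, 0.742 and 0.343 CPM in control libraries. BPA replicate 1 was the highest of the 8 and control replicate 4 the lowest, and the interval of its fold change ran from 0.637 to 1.63. The mean levels of the other alternate alpha genes were 2.03 to 4.27 CPM in BPA and 2.27 to 4.14 CPM in control libraries.

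Pcdha4, Pcdha6 and Pcdha7 share the constant exons with the other alpha genes, which make up 53.3 to 53.6% of their exonic bases, and had 0 reads even there, so reads of the shared exons were not credited to them. In RefSeq, another gene starts within 41 bases of Pcdha4, 6 bases of Pcdha6 and 9 bases of Pcdha7. These are the loci Gm37013, Gm38666 and Gm38667, which were looked up after the zeros were seen, and the table lists them with 6, 185 and 261 reads over the 8 libraries. A count of 0 allows up to 3 reads, or 0.0560 to 0.0692 CPM in BPA libraries and 0.0741 to 0.114 CPM in control libraries, with counting error alone considered. For these 3 genes the counting therefore gives no level to compare.

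The beta genes, which encode the extracellular repertoire without the constant cytoplasmic part, were split evenly, with 12 of 22 above 0 and a median log2 fold change of 0.0094. Leaving out BPA replicate 1 gave a median of 0.025, and leaving out control replicate 4 gave -0.0033. With depth as a covariate the median was -0.066, so its sign was not fixed. Pcdhb1, which lies at the start of the cluster and was the least expressed member, had 7, 11, 12 and 7 reads in BPA libraries, against 10, 18, 10 and 6 reads in control libraries. As CPM these were 0.157, 0.205, 0.277 and 0.161 in BPA libraries, against 0.247, 0.480, 0.323 and 0.229 in control libraries. Control replicate 2 stood highest and the remaining libraries overlapped. The log2 fold change of -0.69 ± 0.34 (SE) had an interval from -1.42 to 0.04, and it was -0.41 without control replicate 2.

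Pcdhb14 had 15.9, 15.5, 15.5 and 16.9 CPM in BPA libraries, against 13.7, 13.6, 16.8 and 13.99 CPM in control libraries. Of the control libraries, 3 lay below every BPA library, and control replicate 3 lay among the BPA values. For Pcdhb14 the log2 fold change was 0.14 ± 0.074 (SE) at an edgeR adjusted p of 0.955, and 0.21 without control replicate 3. Pcdhb19 had 11.4, 11.97, 10.6 and 11.4 CPM in BPA libraries, against 14.7, 12.6, 11.6 and 10.5 CPM in control libraries. Control libraries held both its highest and its lowest value, and the log2 fold change of -0.13 ± 0.094 (SE) was -0.032 without control replicate 1 and -0.20 without control replicate 4.

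The beta genes with the highest level per kb overlapped between the groups. Pcdhb17 had 18.6, 19.2, 19.5 and 21.3 CPM in BPA libraries, against 22.6, 17.9, 21.6 and 19.4 CPM in control libraries, with a log2 fold change of -0.05 ± 0.075 (SE). Pcdhb9 had 13.8, 14.8, 14.8 and 17.0 CPM in BPA libraries, against 13.6, 15.7, 13.8 and 15.4 CPM in control libraries, with 0.05 ± 0.077 (SE). Pcdhb20 had 13.95, 15.2, 16.2 and 15.5 CPM in BPA libraries, against 16.9, 15.5, 16.3 and 14.7 CPM in control libraries, with -0.06 ± 0.067 (SE), which came to -0.020 without BPA replicate 1 and to -0.093 without control replicate 4. The beta genes are close copies of each other, and no source used here says how reads matching several places were treated, so reads may be split between them.

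**Figure D2:**
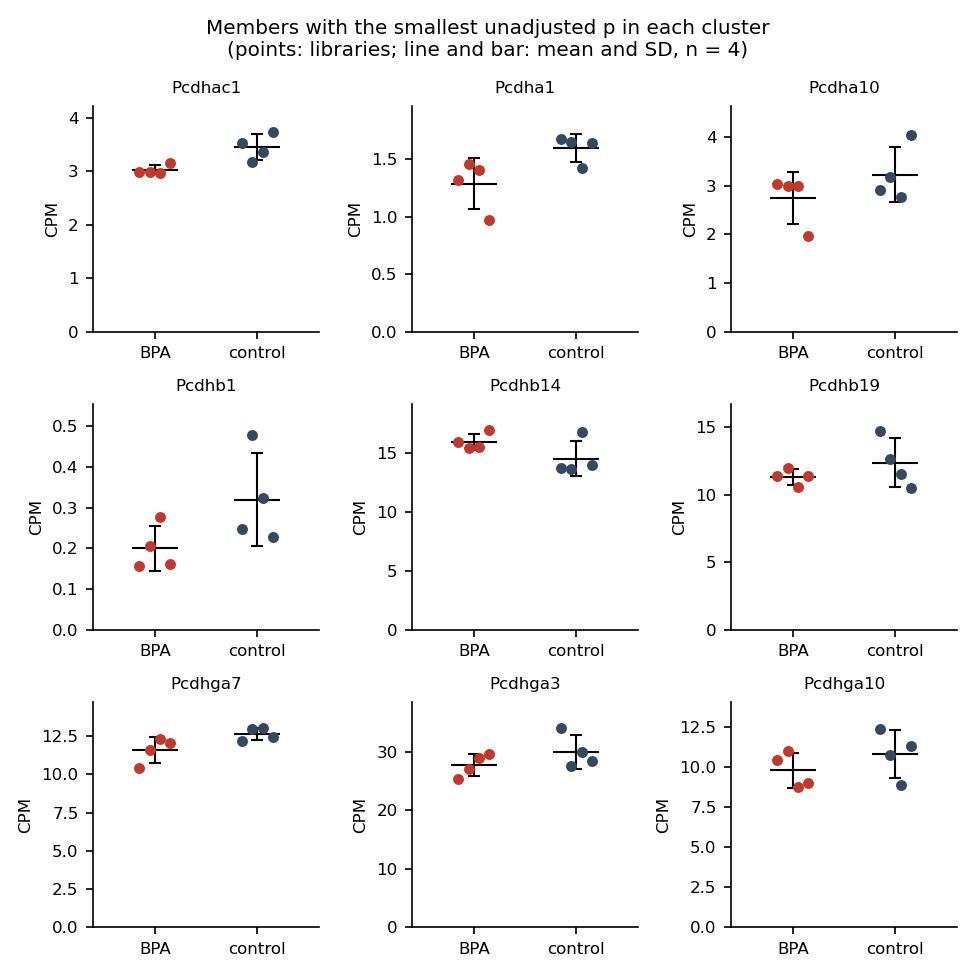
CPM per library of the 3 genes with the smallest unadjusted p in each cluster (alpha in the top row, beta in the middle, gamma at the bottom), with BPA left of control. Points are libraries, and the line and bar are the mean and SD of 4 libraries. Only Pcdhac1 has BPA values that all lie below the control values, and the single low BPA point of Pcdha10 at 1.96 CPM and high control point of Pcdhb14 at 16.8 CPM stand apart from their groups.

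Of the 22 gamma genes 15 had a log2 fold change above 0 and 7 below, with a median of 0.032, and every interval lay inside 1.5-fold. The median ran from -0.0008 without BPA replicate 2 to 0.059 without BPA replicate 4, and was -0.058 with depth as a covariate, so its sign was not fixed. The alternate gamma genes belong to an A and a B subfamily by sequence. Of the 12 gamma A genes 8 lay above 0 and 4 below, and of the 7 gamma B genes 4 lay above 0 and 3 below.

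Pcdhga7 had 10.4, 11.6, 12.3 and 12.1 CPM in BPA libraries, against 12.2, 12.9, 13.0 and 12.4 CPM in control libraries. BPA replicate 3 lay above control replicate 1, which was the only overlap. For Pcdhga7 the log2 fold change was -0.12 ± 0.068 (SE) at an edgeR adjusted p of 0.955, and -0.077 without BPA replicate 1. Pcdhga3 had 25.4, 27.0, 28.9 and 29.6 CPM in BPA libraries, against 34.0, 27.6, 29.96 and 28.4 CPM in control libraries. The groups overlapped in the range of 27.6 to 29.6 CPM, and the log2 fold change of -0.12 ± 0.072 (SE) was -0.047 without control replicate 1.

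Pcdhga10 had 10.4, 10.995, 8.74 and 8.99 CPM in BPA libraries, against 12.4, 10.7, 8.85 and 11.3 CPM in control libraries. Its values fell into the same range in both groups apart from control replicates 1 and 4, and the log2 fold change of -0.15 ± 0.11 (SE) was -0.071 without control replicate 1 and -0.23 without control replicate 3. Pcdhga11, the most expressed alternate gene of the 3 clusters, had 37.1, 40.0, 43.1 and 41.0 CPM in BPA libraries, against 41.2, 40.2, 39.9 and 32.0 CPM in control libraries. The single low value was control replicate 4, and the log2 fold change of 0.068 ± 0.076 (SE) was -0.0067 without it. Pcdhgb8, the gamma gene with the fewest reads, had 1.74, 1.96, 1.41 and 2.03 CPM in BPA libraries, against 1.80, 1.599, 2.45 and 1.71 CPM in control libraries, with a log2 fold change of -0.08 ± 0.17 (SE). The mean levels of the other gamma genes, the C-type genes apart, were 5.63 to 17.4 CPM in BPA libraries and 6.25 to 17.2 CPM in control libraries.

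No source used here states whether counting was by strand. Of the 54 genes with an exon length, 11 overlap an annotated exon on the opposite strand, which leaves their values uncertain. Pcdhgb8, without a length, was not checked. Of the genes named above the overlapping ones are Pcdha12, Pcdhga7, Pcdhga10, Pcdhga11 and Pcdhgc3, and the others are Pcdha11, Pcdhb12, Pcdhga1, Pcdhga8, Pcdhgb7 and Pcdhga12.

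Summed over its genes, each cluster had group means within a few percent of each other. The 11 alpha genes summed to 70.8, 69.3, 68.0 and 66.7 CPM in BPA libraries, against 70.1, 66.2, 69.3 and 74.9 CPM in control libraries, a ratio of means of 0.979. The 22 beta genes summed to 190, 201, 197 and 203 CPM in BPA libraries, against 201, 194, 201 and 190 CPM in control libraries, a ratio of 1.01. The 22 gamma genes summed to 460, 473, 455 and 450 CPM in BPA libraries, against 451, 454, 469 and 436 CPM in control libraries, a ratio of 1.02. In all 3 clusters the group ranges overlapped. All 55 together averaged 726 ± 11.4 CPM in BPA and 719 ± 16.3 CPM in control libraries (SD, n = 4 each).

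The division of the output among the clusters and gene classes overlapped between the groups as well. Gamma genes supplied 63.3 ± 0.573% of the clustered protocadherin CPM in BPA and 62.9 ± 0.693% in control libraries, beta genes 27.2 ± 0.762% and 27.3 ± 0.343%, and alpha genes 9.46 ± 0.246% and 9.76 ± 0.649% (SD, n = 4 each). C-type genes held 54.2, 57.8, 56.2 and 55.1% of the alpha CPM in BPA libraries, against 55.1, 54.2, 53.9 and 57.1% in control libraries. In gamma they held 42.7, 40.9, 42.4 and 41.3% in BPA libraries, against 40.2, 40.8, 42.5 and 41.9% in control libraries. The C-type share thus overlapped between the groups in both clusters. Pcdhac2 alone made up 51.4 ± 1.62% of the alpha CPM in BPA and 50.1 ± 1.39% in control libraries, and Pcdhgc5 26.0 ± 0.514% and 25.4 ± 1.42% of the gamma CPM (SD, n = 4 each). The alpha sum lacks Pcdha4, Pcdha6 and Pcdha7, for which the counting gives no level. All shares that involve alpha are therefore of the counted genes only, and the full division was not measured.

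Within the alpha C-type pair, the level of Pcdhac2 per kb was 9.98, 10.5, 10.0 and 8.99 times that of Pcdhac1 in BPA libraries, against 8.39, 8.72, 8.55 and 8.84 times in control libraries. The groups did not overlap in this ratio, whose denominator is the 1 non-overlapping gene of the 55, and it was not tested.

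**Figure D3:**
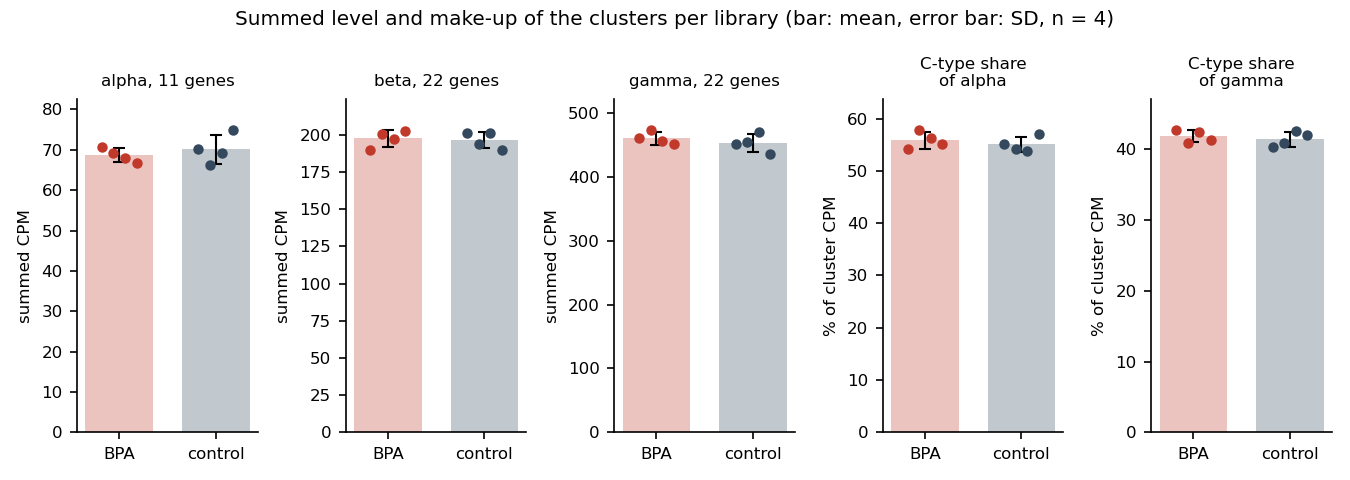
Summed CPM of each cluster and the percentage of the alpha and gamma CPM in C-type genes, per library, with BPA left of control. The alpha sums lack Pcdha4, Pcdha6 and Pcdha7, which have no reads. Points are libraries, bars are means from 0 and error bars are SD of 4 libraries. In all 5 panels the points of the groups overlap, for example at 66.7 to 70.8 CPM in BPA and 66.2 to 74.9 CPM in control libraries for alpha.

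To compare genes with each other, CPM was divided by the length in kb of the exons that no other member shares, which is the variable exon of the alpha and gamma genes, or by the RefSeq span of the single-exon beta genes. A length was found for 54 of the 55, and Pcdhgb8 had none. Levels per kb ranged from 0.106 in Pcdhb1 to 44.7 in Pcdhgc5 over the 8 libraries. The medians were 1.27 CPM per kb for alpha, 1.98 for beta and 5.01 for gamma genes. At the top stood Pcdhgc5 at 44.7 CPM per kb (41.6 to 49.0 over the 8 libraries), then Pcdhgc3 at 25.3 (24.8 to 26.5), Pcdhga11 at 14.9 (12.2 to 16.4), Pcdhac2 at 11.6 (10.8 to 12.9) and Pcdhga3 at 11.1 (9.76 to 13.1). Among the 15 highest genes, the library ranges of neighbours in this order were separate only after Pcdhgc5, after Pcdhgc3 and after Pcdhga3. Pcdhga11, Pcdhac2 and Pcdhga3 overlapped in turn, as did the genes of these 15 from Pcdhga6, at 6.61 CPM per kb, downward. Much of the order depends on the length used. The full exon length counts the shared exons, whose reads were not credited to Pcdha4, Pcdha6 and Pcdha7. If the same holds for the other alpha and gamma genes, that length makes their levels too low. Over the full exon length, shared exons included, Pcdhgc5 at 24.7, Pcdhgc3 at 13.9 and Pcdhga11 at 8.27 CPM per kb kept the first 3 places, but Pcdhga3 at 6.11 passed Pcdhac2 at 5.99. Pcdhb17 came to 4.29, against 6.12 over its span, and Pcdhb14 to 1.75, against 4.43. Neither shares exon bases with another RefSeq gene. Their exons in GENCODE hold more bases than the RefSeq span, at 4660 against 3270 for Pcdhb17 and 8695 against 3438 for Pcdhb14. The medians came to 0.598 for alpha, 1.90 for beta and 2.77 for gamma genes.

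C-type genes were not uniformly high. Pcdhac1, at 1.18 CPM per kb in BPA and 1.35 in control libraries, lay below the median of the beta genes. Within its own cluster it ranked 6 of the 11 alpha genes over the 8 libraries, and so was the alpha median. Pcdhgc4, at 2.61 in BPA and 2.51 in control libraries, lay below the gamma median. Across genes, levels tended to be higher toward the 3' end of the alpha cluster, with a Spearman rho of 0.70 between genomic order and level per kb over 11 genes. The rho was 0.46 over 22 beta genes, or 0.23 with full exon lengths, and 0.0 over 21 gamma genes. These points share libraries and depth, and genes are not independent replicates. Fold changes showed rho values of 0.16 for alpha, -0.30 for beta and -0.12 for gamma with genomic order.

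**Figure D4:**
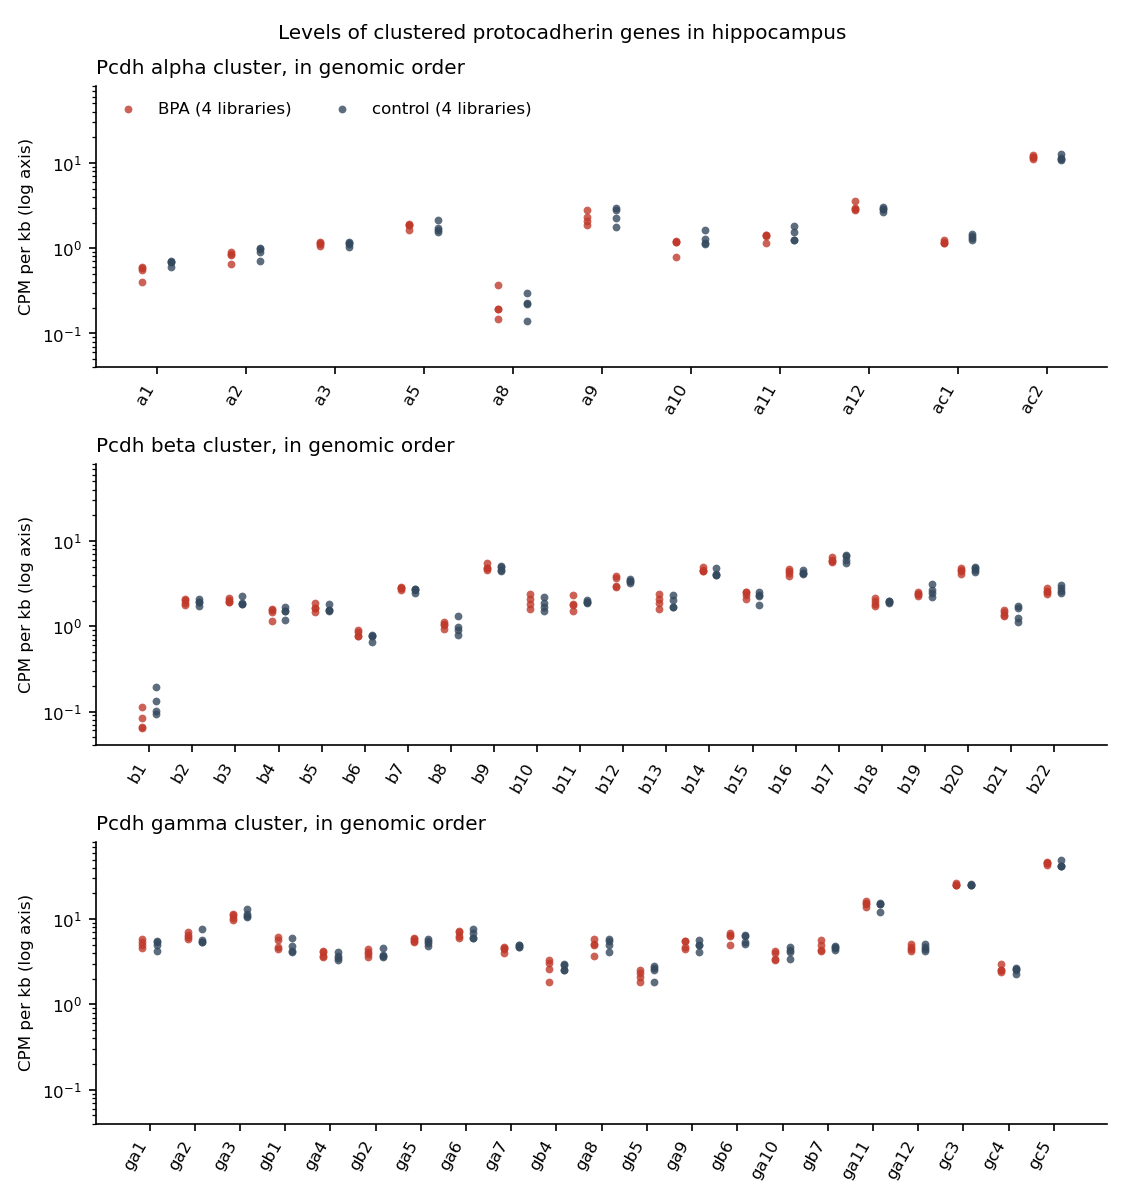
Level of each gene in CPM per kb on a log axis, in genomic order within the clusters, for the 4 BPA libraries (red, left) and the 4 control libraries (blue, right), with the prefix Pcdh left off the names. Pcdhgb8 is absent for want of a length. Pcdhgc5, Pcdhgc3, Pcdhga11, Pcdhac2 and Pcdhga3 stand above the rest, and Pcdhb1 and Pcdha8 lie lowest at 0.106 and 0.224 CPM per kb.

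Replicates of one group varied more than counting alone would give. Over the 55 genes the median variance between replicates was 3.59 times that expected from read counts, against 3.09 times over all tested genes. This ratio was 2.63 for alpha, 3.14 for beta and 6.17 for gamma genes, and it is larger where more reads make the counting part smaller, as with the median of 4222 reads of the gamma genes. The median coefficient of variation did not follow that order, at 13.2% for alpha, 9.16% for beta and 10.8% for gamma genes. Over the 55 it was 10.8%, where counting alone would give a median of 5.10%, and it ranged from 2.22 to 36.9% between genes.

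**Figure D5:**
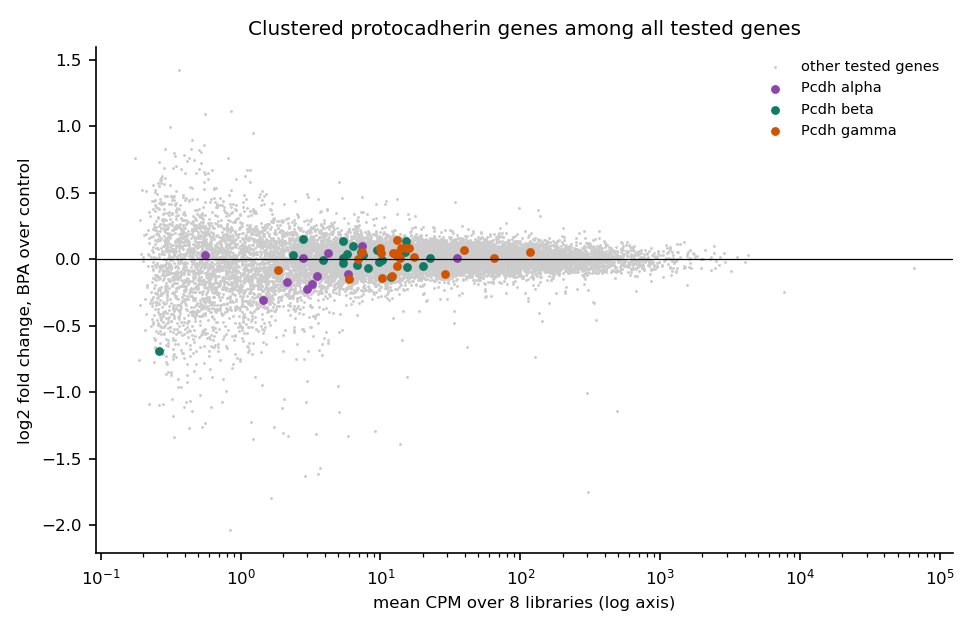
Log2 fold change of BPA over control against mean CPM over the 8 libraries (log axis) for the 15434 tested genes (grey), with the alpha, beta and gamma genes coloured. Apart from Pcdhb1 at -0.69, the clustered protocadherins lie between -0.31 (Pcdha1) and 0.15 (Pcdhb6), within the cloud of other genes of the same level.

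Genes of the machinery that selects and silences these promoters were read from lists of known regulators, and none passed the adjusted threshold. Of 13 tested cohesin and CTCF genes 11 had a log2 fold change above 0 and 2 below, with a median of 0.041, and 1 had an unadjusted p under 0.05, against 4.52% of all tested genes. That gene was Smc3, a core subunit of the cohesin ring, at 136, 153, 151 and 148 CPM in BPA libraries, against 134, 135, 139 and 140 CPM in control libraries. BPA replicate 1 lay among the control values and the other BPA libraries above them. Its log2 fold change was 0.10 ± 0.046 (SE), with an edgeR adjusted p of 0.955. Smc1a, the partner of Smc3 in the ring, had 0.10 ± 0.052 (SE). Ctcf itself averaged 96.2 ± 2.71 CPM in BPA and 93.5 ± 5.94 CPM in control libraries (SD, n = 4 each), a difference smaller than the spread of the control libraries.

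Of 23 silencing and DNA methylation regulators 15 lay above 0 and 8 below, with a median of 0.026, and 0 had an unadjusted p under 0.05. Smchd1, which keeps clustered protocadherin promoters silent in mice, averaged 70.5 ± 2.88 CPM in BPA and 68.5 ± 2.63 CPM in control libraries (SD, n = 4 each). Dnmt3b, which methylates the alternate promoters in the mouse embryo, was barely expressed at 0.444 ± 0.114 CPM in BPA and 0.444 ± 0.210 CPM in control libraries (SD, n = 4 each), with an interval of the log2 fold change from -0.74 to 0.71. Cbx5 and Cbx1, which encode heterochromatin proteins, had log2 fold changes of -0.10 ± 0.051 (SE) and 0.12 ± 0.072 (SE). Cbx5 came to 0.0064 with depth as a covariate, which turned its sign, and Cbx1 to 0.053 without BPA replicate 4.

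Of 23 partners of the proteins in the cell 12 lay above 0 and 11 below, with a median of 0.00048, and 1 had an unadjusted p under 0.05, a share near the 4.52% of all tested genes. This was Axin1, the Wnt pathway scaffold that Pcdhgc3 binds, at 24.8, 27.5, 25.1 and 22.8 CPM in BPA libraries, against 22.7, 23.0, 23.8 and 21.3 CPM in control libraries. Of the BPA libraries 3 lay above every control library, and replicate 4 among them. For Axin1 the log2 fold change was 0.14 ± 0.062 (SE) at an edgeR adjusted p of 0.955, and 0.033 with depth as a covariate. Ptk2, the focal adhesion kinase that alpha and gamma protocadherins inhibit, had 0.085 ± 0.047 (SE).

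The non-clustered protocadherins, single genes outside the clusters that make related adhesion proteins, gave 4 above 0 and 9 below among 13 tested, with a median of -0.037 and 0 at an unadjusted p under 0.05. Pcdh7 averaged 133 ± 1.39 CPM in BPA and 142 ± 6.55 CPM in control libraries, Pcdh20 averaged 299 ± 12.1 and 286 ± 12.5 CPM, and Pcdh9 222 ± 1.36 and 227 ± 8.63 CPM (SD, n = 4 each).

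The genes around the clusters on chromosome 18 showed 11 above 0 and 9 below among 20 tested, with a median of 0.014, 4 at an unadjusted p under 0.05, against 4.52% of all tested genes, and 0 past the adjusted threshold. Pcdh1 and Pcdh12 stand in this list and in that of the non-clustered genes, and Hdac3 in this list and in that of the silencing regulators. Ik, which encodes a splicing factor and lies 172.6 kb before the alpha cluster, had 208, 227, 212 and 217 CPM in BPA libraries, against 193, 190, 205 and 193 CPM in control libraries. The groups did not overlap, and the log2 fold change was 0.15 ± 0.045 (SE) at an edgeR adjusted p of 0.955. Taf7, a transcription initiation factor gene between the beta and gamma clusters, had 14.4, 14.7, 14.6 and 14.6 CPM in BPA libraries, against 13.1, 12.2, 14.5 and 11.4 CPM in control libraries. Control replicate 3 lay among the tightly grouped BPA values and the other controls below them, and the log2 fold change was 0.18 ± 0.073 (SE). Hars2, a mitochondrial histidyl-tRNA synthetase gene 137.7 kb before the alpha cluster, averaged 14.3 ± 0.594 CPM in BPA and 16.7 ± 1.76 CPM in control libraries (SD, n = 4 each). Its log2 fold change was -0.22 ± 0.076 (SE), and -0.053 with depth as a covariate. The fourth was Wdr55, at 9.75 ± 0.188 CPM in BPA and 8.61 ± 0.723 CPM in control libraries (SD, n = 4 each).

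The cell make-up of the tissue pieces varied between libraries, and in bulk RNA fewer cells of a type and less RNA per cell cannot be told apart. All 17 choroid plexus markers had a log2 fold change below 0, with a median of -1.22, and their summed level was 378, 176, 883 and 243 CPM in BPA libraries, against 303, 3245, 221 and 322 CPM in control libraries. That direction rested on control replicate 2. Leaving it out, a step chosen after seeing the data, put the mean of 16 of the 17 markers higher in BPA libraries, and the other 3 control sums lie within the range of the BPA libraries. All 10 tested ependymal markers lay below 0, with a median of -0.42, at summed levels of 19.8 to 31.8 CPM in BPA and 23.0 to 47.4 CPM in control libraries. Without control replicate 2 the mean of 9 of the 10 was lower in BPA libraries. With any other single library left out, all 10 means were lower. All 10 dentate granule cell markers lay above 0, with a median of 0.18, at summed levels of 790, 852, 840 and 854 CPM in BPA libraries, against 608, 839, 869 and 675 CPM in control libraries. Control replicates 1 and 4 were low and the other 2 control libraries lay near the BPA values. Of 8 CA1 markers 1 lay above 0 and 7 below, with a median of -0.090, at sums of 575, 612, 627 and 615 CPM in BPA libraries, against 705, 556, 600 and 693 CPM in control libraries. The same 2 control libraries were highest there, and without control replicate 1 the mean was higher in BPA libraries for 4 of the 8. Of 12 astrocyte markers 6 lay above 0 and 6 below, with a median of -0.015 and sums of 9025 to 10221 CPM in BPA and 10175 to 11733 CPM in control libraries. Most of these sums is Slc1a2, the main astrocyte glutamate transporter, at 6979 ± 522 CPM in BPA and 8274 ± 705 CPM in control libraries (SD, n = 4 each). Its groups did not overlap, with a log2 fold change of -0.25 ± 0.061 (SE) at an edgeR adjusted p of 0.955. Without Slc1a2 the remaining 11 markers summed to 2391 to 2495 CPM in BPA and 2370 to 2505 CPM in control libraries. In the other 8 lists (excitatory neurons, interneurons, CA3 with CA2, oligodendrocytes and their precursors, microglia, endothelium with pericytes, meningeal fibroblasts) the summed levels also overlapped between the groups. Single markers did reach an unadjusted p under 0.05, against 4.52% of all tested genes. These were 3 of 12 oligodendrocyte markers, all lower in BPA, and 3 of 11 for CA3 with CA2, 1 higher and 2 lower. Interneurons had 2 of 13, 1 each way, endothelium with pericytes 1 of 12, lower, and the rest of these 8 lists 0. Of the lists described before them, ependymal markers had 1 of 10 and astrocyte markers 1 of 12, both lower in BPA. Choroid plexus, dentate granule cell and CA1 markers had 0. No marker of any list passed the adjusted threshold, and the part of cell make-up in the values of the protocadherin genes was not tested. Without the libraries highest in choroid plexus markers, control replicate 2 and BPA replicate 3, 0 of the 54 clustered protocadherin genes then tested passed the adjusted threshold. Pcdhga3 and Pcdhgb6 had an unadjusted p under 0.05, which is 3.70% of the 54, against 5.81% of all tested genes.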

How the data were processed

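Polyadenylated RNA of whole hippocampus was sequenced as stranded libraries (ScriptSeq v2, per the labels' protocols). The authors deposited raw read counts per gene symbol, whole numbers that are not normalized, on refGene genes per the file header. The submitters' processing notes name Trimmomatic 0.32, STAR 2.3.0e, featureCounts 1.5.0, DESeq2 and the mm10 build. The strand setting and the treatment of reads matching several genes are not given in the sources used here, and either can move reads between overlapping or similar genes.

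From the counts, edgeR 4.0.16 (R 4.3.3, limma 3.58.1) gave TMM-scaled CPM, the filterByExpr filter and a two-sided quasi-likelihood test of BPA against control over 8 libraries, with Benjamini-Hochberg adjustment over 15434 genes and a threshold of 0.05. All 8 count columns were mapped to samples, and 0 were left unmapped. Levels per kb on GRCm38 used, for alpha and gamma genes, the exon bases of RefSeq-paired GENCODE M21 transcripts that no other RefSeq gene shares, and for the single-exon beta genes the RefSeq span. Errors are SE of the fit or SD between replicates, and intervals are 95%. No pair of replicates agreed within counting noise. On counts simulated for this comparison with 50 changed genes per size over 15434 genes, the test called 40% of those set to change 1.25-fold and 82% of those set to 1.5-fold. For 2-fold the share was 92%, for 3-fold 98%, and 7 unchanged genes were called. The changed genes were drawn from all tested genes, and planting many true changes eases the adjustment. These shares therefore do not measure what would be called among the clustered protocadherins.

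Named were all C-type genes, and in each cluster the 3 smallest unadjusted p-values, the 3 highest levels per kb and the fewest reads. Genes with groups that do not overlap, and in the lists of regulators, partners, other protocadherins and neighbours the 2 smallest unadjusted p-values and a few fixed genes, were named too, apart from 1 that is not reported here. Marker lists are given by counts and sums. The members and lists were chosen with earlier results of these data known, so their counts are descriptions and no list has a test of its own. Alternatives tried were DESeq2 1.42.0, limma-voom, RLE and upper-quartile scaling, other low-count filters, each library left out, a replicate block, depth as a covariate, thinning of reads and full exon lengths. Marker sums without single libraries or Slc1a2 were added after seeing the data.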

Additional observations from a re-analysis of the deposited data

Results flagged for a closer look

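Among 98 groups of 4 libraries checked for a library far from the other 3, 10 were marked, and chance alone marks about 1 group in 20. In BPA libraries, replicate 4 held the highest Pcdhac1 level, at 3.16 CPM with the others at 2.97 to 3.00. The same library held the lowest Pcdhgc5 level, at 115 CPM with the others at 121 to 121, and the lowest Pcdha10 level, at 1.96 CPM with the others at 2.99 to 3.04. BPA replicate 2 had the highest sum over all 55 genes, at 743 CPM with the others at 719.9 to 721.2.

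In control libraries, replicate 3 held the highest Pcdhgc5 level, at 128 CPM with the others at 109 to 112, and the highest Pcdhb14 level, at 16.8 CPM with the others at 13.6 to 13.99. The same library held the lowest Pcdha1 level, at 1.42 CPM with the others at 1.64 to 1.68. Control replicate 4, the shallowest library, held the lowest Pcdhga11 level, at 32.0 CPM with the others at 39.9 to 41.2. Control replicate 2 held the highest Pcdhgc3 level, at 65.9 CPM with the others at 64.5 to 64.6. Control replicate 1 had the highest beta share of the summed CPM, at 27.8% with the others at 27.1 to 27.2%.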

How the results depend on the processing

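Under every alternative, 0 of the clustered protocadherin genes tested passed an adjusted p of 0.05. Over the whole table DESeq2 called 7 genes and every other alternative 0. With each library left out in turn, 0 alpha, 0 to 2 beta and 0 to 4 gamma genes had an unadjusted p under 0.05, and the median log2 fold changes ran from -0.126 to -0.0264 (alpha), -0.0033 to 0.0251 (beta) and -0.0008 to 0.0587 (gamma). With depth as a covariate the medians were -0.0419 (alpha), -0.0660 (beta) and -0.0584 (gamma). There 1 beta (Pcdhb19) and 1 gamma gene (Pcdhga10) had an unadjusted p under 0.05, 3.64% of the members against 3.39% of all tested genes. Without control replicate 2 and BPA replicate 3 together 2 gamma genes did, 3.70% of the members against 5.81% of all tested genes. With reads thinned to the smallest library 1 alpha gene, Pcdhac1, did, 1.85% of the members against 4.47% of all tested genes. The causes were not tested.

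Signs turned where the estimate was below its SE, and for Cbx5 (-0.10 ± 0.051 SE in the fit as reported). With limma-voom these were Pcdha8 (-0.023) and Dnmt3b (0.053). With depth as a covariate they were Pcdha9 (0.097), Pcdhga11 (-0.094), Cbx5 (0.0064), Smchd1 (-0.016) and Dnmt3b (0.36), and with reads thinned Pcdhgc3 (-0.0050), Pcdhgc4 (-0.0018), Pcdhgb8 (0.034) and Dnmt3b (0.19). Without control replicate 2 and BPA replicate 3 they were Pcdhac2 (-0.027), Pcdhgc4 (-0.0023) and Dnmt3b (0.32). With 1 library left out the ranges crossed 0 for Pcdhac2 (-0.026 to 0.058), Pcdhgc3 (-0.013 to 0.018), Pcdhgc4 (-0.017 to 0.090), Pcdha8 (-0.30 to 0.19), Pcdhb17 (-0.11 to 0.0030), Pcdhb9 (-0.012 to 0.090), Pcdhga11 (-0.0067 to 0.11), Pcdhgb8 (-0.15 to 0.067) and Dnmt3b (-0.21 to 0.36).

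Same-numbered BPA and control libraries did not deviate together (r of -0.123, -0.372, -0.295 and 0.0702). These values show no pairing by number but cannot exclude it, as they are few and tissue make-up also varied between libraries. With the number as a replicate block, 0 genes were called, 498 had an unadjusted p under 0.05 against 698 without it, and Dnmt3b turned to 0.021, and the alpha, beta and gamma medians were -0.106, 0.0097 and 0.0332. Depth limits Pcdhb1 and Pcdha8, with 81 and 179 reads. The size of change that would be called among the clustered protocadherin genes was not measured, and changes above 1.25-fold may go uncalled too.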
